A study of Arabidopsis thaliana with 24 samples.

Results

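The nuclear genes of the Arabidopsis thaliana photosystems were followed through 24 libraries of whole seedlings. They were taken as a fixed set of 43 loci out of the 27655 loci counted: 6 LHCA and 15 LHCB antenna genes, PSBS, 12 photosystem I subunits and 9 photosystem II subunits. All 43 were in the files, and all 43 passed the filter on low counts. Seedlings were grown on soil and frozen whole at an age of 14 days, and polyadenylated RNA was counted by sequencing 1 short stretch close to each molecule's 3′ end. Each growth setting was sampled at zeitgeber time 16 (ZT16, late in the long day) and zeitgeber time 4 (ZT4, morning), with 3 replicates per group. Natural 2014 was an open outdoor cage in July 2014, and natural 2013 the same kind of cage in June 2013. Both cages were shaded with garden fabric that lowered the light without changing its ratio of red to far-red. LD+FR+TEMP was a long day indoors under white fluorescent tubes, to which weak 730 nm diodes were added until red and far-red were equal (a ratio of 1). The chamber's temperature was changed through the day, from a minimum of 15.8 °C to a maximum of 22.8 °C. It stood at 17.9 °C at ZT4, and it passed from 19.8 °C at ZT15 to 18.3 °C at ZT17. Lab LD was the usual long day of the laboratory, whose details the labels leave to earlier work. The labels name no genotype or transgene, and separate plantings of the replicates are not stated, so p-values reflect only the spread among these libraries.

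Light energy is caught by chlorophyll held in antenna proteins. The LHCA proteins form the antenna of photosystem I. LHCB1, LHCB2 and LHCB3 build the antenna trimers of photosystem II, and LHCB4, LHCB5 and LHCB6 are the monomeric antenna that links those trimers to the core. PSBS is not an antenna protein but the sensor that switches the photosystem II antenna to releasing surplus energy as heat. The core subunits encoded in the nucleus are small or lie at the edges. In photosystem I, PSAD and PSAE dock ferredoxin, PSAF binds plastocyanin, and PSAH, PSAL and PSAO lie where the mobile antenna attaches. In photosystem II, PSBO, PSBP and PSBQ shield the cluster that splits water. Antenna mRNAs are classic targets of light, of the chloroplast and of the circadian clock, and they peak in the first part of the day.

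The DNA in front of 8 antenna genes is shown first, because several copies encode nearly the same protein and yet behaved differently. Each line holds the 250 bases before the annotated gene start in RefSeq's TAIR10.1 assembly, 5′ to 3′ on the gene's own strand. The LHCB2 copies are shown because their summed level fell more by ZT16 than that of LHCB1. LHCB1.1 is shown as the LHCB1 copy with the largest fall, and LHCB1.4 and LHCB1.5 as divergent neighbours that differed outdoors. LHCB4.1 and LHCB4.3 are isoforms of 1 antenna protein with opposite patterns. Capitals mark the motifs searched on both strands: AAAAATCT (the binding site of the clock factor CCA1), AAAATATCT (the evening element), CACGTG (the G-box), GATAAG (an I-box read by GATA factors) and CCAATC (which holds the CCAAT box). No 2 motifs overlapped in these windows, and none of the windows overlapped another annotated gene.
LHCB2.1 (AT2G05100, chr2:1824481-1824730, minus strand): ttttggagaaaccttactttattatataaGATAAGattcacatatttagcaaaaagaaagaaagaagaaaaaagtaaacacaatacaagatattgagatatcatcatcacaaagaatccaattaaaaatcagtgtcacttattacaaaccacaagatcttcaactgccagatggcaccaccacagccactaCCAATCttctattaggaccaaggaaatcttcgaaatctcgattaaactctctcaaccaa
LHCB2.2 (AT2G05070, chr2:1800473-1800722, minus strand): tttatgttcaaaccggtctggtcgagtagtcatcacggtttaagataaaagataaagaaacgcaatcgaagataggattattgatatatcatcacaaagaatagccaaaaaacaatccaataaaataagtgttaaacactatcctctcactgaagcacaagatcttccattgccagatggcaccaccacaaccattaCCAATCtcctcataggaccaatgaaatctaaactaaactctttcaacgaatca
LHCB2.3 (AT3G27690, chr3:10255656-10255905, plus strand): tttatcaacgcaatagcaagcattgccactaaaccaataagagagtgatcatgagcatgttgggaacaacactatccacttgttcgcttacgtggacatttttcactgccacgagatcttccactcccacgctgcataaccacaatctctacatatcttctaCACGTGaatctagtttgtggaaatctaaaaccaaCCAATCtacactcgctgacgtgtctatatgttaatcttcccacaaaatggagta
LHCB1.1 (AT1G29920, chr1:10475970-10476219, minus strand): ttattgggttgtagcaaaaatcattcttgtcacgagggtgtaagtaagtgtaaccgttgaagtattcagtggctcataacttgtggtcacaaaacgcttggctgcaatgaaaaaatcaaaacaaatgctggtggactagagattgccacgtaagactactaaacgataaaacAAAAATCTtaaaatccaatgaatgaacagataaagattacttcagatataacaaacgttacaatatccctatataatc
LHCB1.4 (AT2G34430, chr2:14524357-14524606, plus strand): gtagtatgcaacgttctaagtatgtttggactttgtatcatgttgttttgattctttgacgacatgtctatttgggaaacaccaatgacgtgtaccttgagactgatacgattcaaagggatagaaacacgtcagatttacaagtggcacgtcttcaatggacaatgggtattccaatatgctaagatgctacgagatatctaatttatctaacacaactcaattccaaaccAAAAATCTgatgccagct
LHCB1.5 (AT2G34420, chr2:14523569-14523818, minus strand): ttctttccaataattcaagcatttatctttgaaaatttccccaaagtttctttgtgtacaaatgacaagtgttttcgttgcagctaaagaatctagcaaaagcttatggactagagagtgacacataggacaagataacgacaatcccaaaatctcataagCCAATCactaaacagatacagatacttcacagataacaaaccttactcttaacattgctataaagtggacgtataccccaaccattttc
LHCB4.1 (AT5G01530, chr5:208616-208865, plus strand): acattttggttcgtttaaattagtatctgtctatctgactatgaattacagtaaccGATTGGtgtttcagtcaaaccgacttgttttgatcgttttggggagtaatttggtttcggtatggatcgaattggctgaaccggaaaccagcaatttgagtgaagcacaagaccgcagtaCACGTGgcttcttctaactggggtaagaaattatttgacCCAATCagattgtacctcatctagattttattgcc
LHCB4.3 (AT2G40100, chr2:16745378-16745627, plus strand): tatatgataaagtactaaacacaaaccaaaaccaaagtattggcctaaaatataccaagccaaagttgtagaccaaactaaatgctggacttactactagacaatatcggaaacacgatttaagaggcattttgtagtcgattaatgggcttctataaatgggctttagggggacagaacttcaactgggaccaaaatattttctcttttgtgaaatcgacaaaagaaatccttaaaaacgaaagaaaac

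All 3 LHCB2 windows held CCAATC at nearly the same place, with its first base at -59, -53 and -54 from the annotated start of LHCB2.1, LHCB2.2 and LHCB2.3. CCAATC stood in the windows of 11 of the 43 genes (25.6%), and in 10.2% of the 27443 windows of the same length in front of protein-coding genes. Besides the LHCB2 copies these were LHCA1, LHCA3, LHCA4, LHCB1.3, LHCB1.5, LHCB4.1, LHCB4.2 and PSBQ2. Their lowest log2 fold changes of ZT16 over ZT4 in any setting ran from -0.64 in LHCB4.1 to -2.92 in LHCA4. The window of LHCB1.1, which reached -5.00, held no CCAATC. The G-box stood in 9 of the 43 (20.9%, against 6.49% of all windows) and GATAAG in 9 (20.9%, against 12.3%). The CCA1 site stood in 5 (11.6%, against 6.69%) and the evening element in 1 (2.3%, against 2.36%). The window of LHCB4.3 held none of the motifs searched. Neither did those of LHCB1.2, LHCB3 and LHCB5, which were lower at ZT16 in all 4 settings. A match describes the letters of these windows and not the binding of a factor. LHCB1.5 and LHCB1.4 lie head to head on chromosome 2 with 1038 bases between their annotated starts and no gene between them, and LHCB1.1 and LHCB1.3 lie head to head on chromosome 1 with 1915 bases between theirs.

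Totals per library were 6543615 to 10711582 counts outdoors and 12069812 to 16089156 indoors, so every outdoor library was shallower. Levels are given as CPM, the count scaled to library size after TMM normalisation. Values in replicate order 1, 2 and 3 are listed for single genes. An error after a log2 fold change is a standard error worked back from that change and its test statistic. It rests on each gene's spread fitted over all 24 libraries, not on the spread of the groups compared. Between 2 replicates, the mean chi-square per gene was 9.52 to 26.8 at natural 2014 ZT4 and 2.89 to 4.8 at natural 2013 ZT4. It was 11.42 to 17.42 at lab LD ZT4, where libraries were deeper. A spread shared by all groups can thus give errors too small for natural 2014 ZT4 and too large for natural 2013 ZT4. An error after a level or a share is the standard deviation with n = 3. A gene was called higher or lower at an adjusted p under 0.05 in edgeR's quasi-likelihood test over all 18797 genes tested. The 5 LHCB1 and 3 LHCB2 genes encode near-identical proteins, and how reads matching several copies were counted is not given in the sources used here. Over the last 200 transcript bases, where a 3′ tag falls, RefSeq's sequences of LHCB1 copies were 48.1% to 54.5% identical and those of LHCB2 copies 48.5% to 57.2%. The paralogue pairs of other subunits gave 44.8% to 53.4% by the same gapped alignment. The longest run of bases shared by 2 copies there was 20 in LHCB1 (LHCB1.2 and LHCB1.3) and 10 in LHCB2 (LHCB2.1 and LHCB2.2). Because the counting of shared reads is not given, single copies are reported beside the family sums, and as uncertain. In whole seedlings, fewer green cells and less mRNA per green cell cannot be told apart. Natural 2014 ZT4 replicate 1 lay farthest from the other libraries on the first principal components. The summed level of 5 heat shock genes was 2067 to 16410.0 CPM at natural 2014 ZT4 and 49.96 to 204.2 CPM at natural 2013 ZT4. It was 11.1 to 78.4 CPM in the other groups.

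The 43 genes together were a large part of the mRNA, and that part was smaller at ZT16 than at ZT4 in every setting. They held 8.27% ± 0.45 of all counts at ZT16 and 10.4% ± 1.12 at ZT4 in natural 2014. In natural 2013 they held 7.18% ± 0.11 at ZT16 and 15.6% ± 0.44 at ZT4. LD+FR+TEMP gave 8.46% ± 0.13 and 13.45% ± 0.35, and lab LD 8.32% ± 0.36 and 17.43% ± 1.33, again at ZT16 and ZT4. Evening shares of the 4 settings thus lay within 7.06% to 8.74% in all 12 libraries, whereas morning shares ran from 9.64% in natural 2014 to 18.95% in lab LD. The groups at ZT16 and ZT4 did not overlap in any setting. The LHCB genes carried most of the difference. Their share was 1.27% ± 0.07 at ZT16 and 3.73% ± 0.51 at ZT4 in natural 2014, 1.201% ± 0.03 and 6.41% ± 0.15 in natural 2013, 1.91% ± 0.09 and 5.79% ± 0.08 in LD+FR+TEMP, and 1.75% ± 0.13 and 7.37% ± 0.36 in lab LD. In natural 2014 the subunits of photosystem I and of photosystem II held more of the counts at ZT16 (3.42% ± 0.24 and 2.72% ± 0.08) than at ZT4 (2.93% ± 0.30 and 2.36% ± 0.17). In the other settings their means were lower at ZT16. These shares are described without a test, and they depend on the other genes in the same library.

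**Figure D1:**
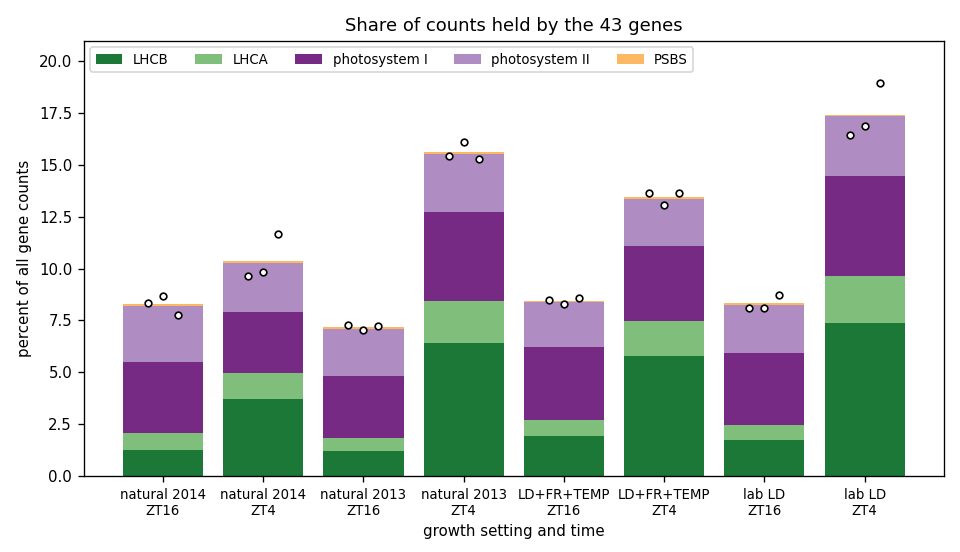
Percent of all gene counts held by the 43 genes (y axis) in the 8 groups (x axis); coloured blocks are group means of LHCB, LHCA, photosystem I, photosystem II and PSBS, and open circles are the totals of the 3 libraries of a group. The ZT16 totals lie between 7.06% and 8.74% in all settings, while the ZT4 totals range from 9.64% in natural 2014 to 18.95% in lab LD.

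Evening levels were first set against morning levels within each setting. Only 2 times were sampled, so a fall is the ZT16 level against the ZT4 level. The depth or hour of a daily minimum was not measured. In natural 2014, 23 of the 43 genes were lower at ZT16 and 2 higher, where 22.5% of all genes tested were called lower and 23.2% higher. In natural 2013, 36 were lower and 1 higher (background 17.8% lower and 35.5% in either direction). In LD+FR+TEMP, 28 were lower and 0 higher (background 12.1% and 11.4%), and in lab LD 37 were lower and 1 higher (background 11.5% and 10.4%). Median log2 fold changes over the 43 genes were -0.35, -0.83, -0.45 and -0.77 in that order of settings, beside medians over all genes tested of 0.04, 0.01, 0.01 and -0.02. The same 20 genes were lower at ZT16 in all 4 settings, as were 754 of the 18797 genes tested. They were LHCA1, LHCA3 and LHCA4, all LHCB1 and LHCB2 copies, LHCB3, LHCB4.2, LHCB5, LHCB6, PSAE1, PSAH1, PSAH2, PSAN and PSBY. A further 7 genes were lower in 3 settings, 10 in 2 and 3 in 1, and LHCA6, LHCB4.3 and PSAE2 were lower in none. A fall of at least 4-fold in all 4 settings was found for LHCB1.1, the 3 LHCB2 copies and LHCB3, among 78 such genes of all tested.

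The heat map of all libraries shows how unequal the genes were. Most trimer genes of photosystem II and the pair LHCA1 and LHCA4 swung widely between the times, and most core subunits moved less. The trimer gene LHCB1.3 fell by log2 values of only -0.60 to -1.17. Among the core subunits PSAD2 reached -1.50 and PSAH2 -1.18.

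**Figure D2:**
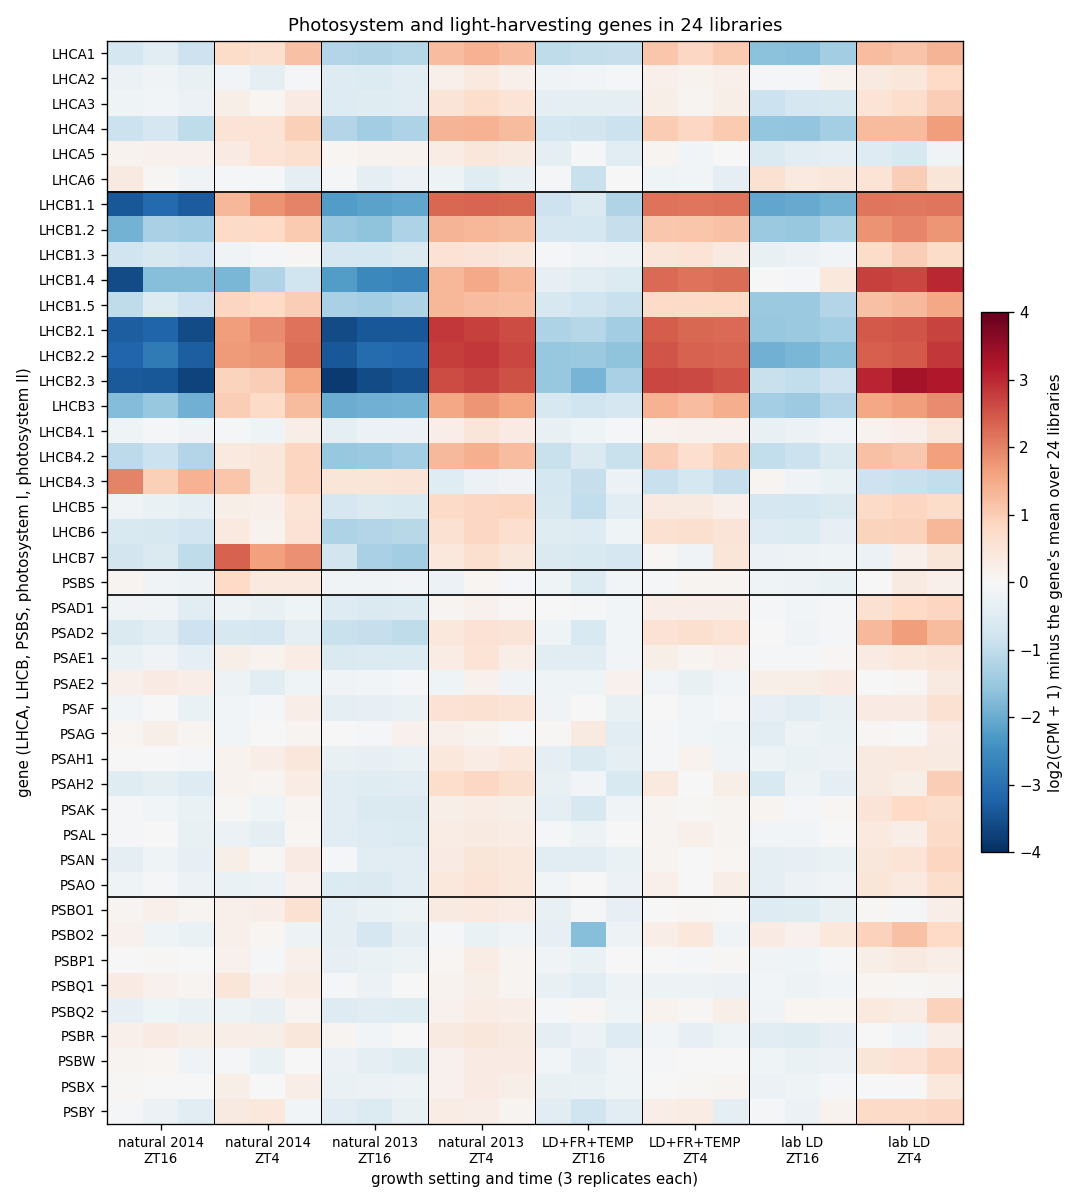
Level of each of the 43 genes (rows, in blocks of LHCA, LHCB, PSBS, photosystem I and photosystem II) in each of the 24 libraries (columns, 3 per group), as log2(CPM + 1) minus the gene's own mean over all libraries; red is above and blue below that mean. LHCB1.1, LHCB3 and the LHCB2 copies are red at ZT4 and blue at ZT16 in all 4 settings, whereas LHCB4.3 is red in natural 2014.

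LHCB2, whose phosphorylation lets trimers move to photosystem I, had the widest swing of the trimer families. Summed over its 3 copies, it had 215, 247 and 183 CPM at ZT16 and 6463, 7191 and 9244 CPM at ZT4 in natural 2014. The natural 2013 libraries held 178, 212 and 209 CPM at ZT16 and 14326, 14161 and 12851 CPM at ZT4. LD+FR+TEMP gave 809, 832 and 752 CPM at ZT16 and 11687, 10643 and 10305 CPM at ZT4, and lab LD 692, 708 and 782 CPM and 11646, 12389 and 14486 CPM. No evening library came near a morning one, and all outdoor evening libraries lay below all indoor evening libraries. The sum was 35.5-fold lower at ZT16 in natural 2014 (log2 -5.15 ± 0.14, adjusted p = 4.3e-20) and 68.9-fold lower in natural 2013 (-6.11 ± 0.14, adjusted p = 7.35e-21). Indoors it was 13.6-fold lower in LD+FR+TEMP (-3.77 ± 0.13, adjusted p = 1.47e-17) and 17.7-fold lower in lab LD (-4.14 ± 0.13, adjusted p = 2.55e-18). The fall was larger than in lab LD in natural 2014 (difference of the log2 fold changes -1.01 ± 0.16, adjusted p = 3e-05) and in natural 2013 (-1.97 ± 0.17, adjusted p = 4.79e-09). For LD+FR+TEMP the difference from lab LD was not called (0.37 ± 0.16, adjusted p = 0.232). Single copies ranged from -3.58 (LHCB2.1, LD+FR+TEMP) to -6.34 (LHCB2.3, natural 2013).

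LHCB1 is the main trimer protein, and its summed level also fell in every setting, but less deeply. Its 5 copies summed to 5583, 6852 and 6202 CPM at ZT16 and 20079, 23377 and 26463 CPM at ZT4 in natural 2014, and to 6346, 6196 and 6817 CPM and 35319, 35293 and 34087 CPM in natural 2013. LD+FR+TEMP had 10792, 10771 and 9500.4 CPM at ZT16 and 32609.5, 32783 and 32001 CPM at ZT4, and lab LD had 8036, 8270.0 and 9416 CPM and 38547, 41206 and 40538 CPM. The times did not overlap in any setting. The log2 fold changes of the sum were -1.91 ± 0.09, -2.44 ± 0.09, -1.65 ± 0.09 and -2.23 ± 0.09 in natural 2014, natural 2013, LD+FR+TEMP and lab LD (largest adjusted p = 2.97e-13). Among the copies LHCB1.1 fell most, by a log2 fold change of -5.00, -4.46, -3.00 and -4.13 in the same order. Its divergent neighbour LHCB1.3 stood at -0.69, -1.17, -0.60 and -1.04. At ZT16, LHCB1.3 had means of 4073, 4298, 6139 and 5800 CPM, beside means of the sum of 6212, 6453, 10355 and 8574 CPM. The smaller fall of the LHCB1 sum thus rested largely on this copy. The difference between copies was not tested, and it is open to the uncertainty about reads that match several copies.

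LHCB3, the third trimer protein, was lower at ZT16 in all settings, with log2 fold changes from -2.07 ± 0.12 in LD+FR+TEMP to -3.56 ± 0.13 in natural 2013. Of the monomeric antenna, LHCB5 (-0.61 to -1.45) and LHCB6 (-0.97 to -1.87) fell in all 4 settings. The 3 LHCB4 genes, which encode isoforms of the antenna CP29, differed among themselves. LHCB4.2 (AT3G08940) had 472, 535 and 438 CPM at ZT16 and 1285, 1353 and 1796 CPM at ZT4 in natural 2014, and 339, 346 and 378 CPM and 2425, 2609 and 2324 CPM in natural 2013. It had 533, 659 and 531 CPM at ZT16 and 1957, 1573 and 1902 CPM at ZT4 in LD+FR+TEMP, and 498, 545 and 657 CPM and 2200.0, 2049 and 3061 CPM in lab LD. It fell to well under its morning level everywhere, by a log2 fold change of -1.62 ± 0.14, -2.79 ± 0.15, -1.66 ± 0.14 and -2.10 ± 0.15 in natural 2014, natural 2013, LD+FR+TEMP and lab LD. LHCB4.1 had 1755, 1918 and 1781 CPM at ZT16 and 1917, 1757 and 2347 CPM at ZT4 in natural 2014, where the times overlapped and no difference was called (-0.14 ± 0.10, adjusted p = 0.248). Its evening libraries lay below its morning libraries in the other 3 settings, with 1517, 1660.0 and 1669.8 CPM at ZT16 and 2378, 2734 and 2454 CPM at ZT4 in natural 2013, 1601, 1738 and 1845 and 2158, 2204 and 2193 CPM in LD+FR+TEMP and 1604, 1669 and 1808 and 2159.8, 2244 and 2668 CPM in lab LD. The falls were of -0.64 ± 0.10, -0.34 ± 0.10 and -0.48 ± 0.10 on the log2 scale. Leaving out replicate 1 of LD+FR+TEMP at ZT16 ended the call there (-0.29).

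LHCB4.3, the isoform known from plants under long high light, ran the other way and was the only antenna gene that was higher at ZT16 in any setting. It had 182, 88.2 and 122 CPM at ZT16 and 99.0, 62.6 and 82.6 CPM at ZT4 in natural 2014, which overlapped. Natural 2013 gave 64.3, 64.1 and 65.6 CPM at ZT16 and 32.5, 38.9 and 41.3 CPM at ZT4. LD+FR+TEMP gave 27.4, 23.4 and 38.2 and 24.0, 27.6 and 23.6 CPM, and lab LD 49.4, 40.8 and 37.8 and 25.4, 24.0 and 22.6 CPM, at ZT16 and ZT4. The 6 natural 2014 libraries and the 3 natural 2013 evening libraries stood above every indoor library. The rise was 1.61-fold in natural 2014 (0.68 ± 0.19, adjusted p = 0.00485), 1.72-fold in natural 2013 (0.78 ± 0.20, adjusted p = 0.00338) and 1.78-fold in lab LD (0.83 ± 0.20, adjusted p = 0.00287). It was not called in LD+FR+TEMP (0.24 ± 0.20, adjusted p = 0.428), and no interaction with setting was called. Without natural 2014 ZT16 replicate 1, the natural 2014 value was 0.37 and did not pass. LHCB7 (AT1G76570), a less studied relative of the antenna proteins, had 12.05, 13.4 and 9.68 CPM at ZT16 and 110.3, 66.3 and 75.0 CPM at ZT4 in natural 2014 and 11.8, 7.80 and 7.13 CPM and 27.7, 32.9 and 28.7 CPM in natural 2013. Indoors it had 13.3, 13.2 and 12.5 and 21.4, 18.5 and 28.9 CPM in LD+FR+TEMP and 17.3, 17.58 and 18.1 and 17.3, 23.6 and 29.4 CPM in lab LD, at ZT16 and ZT4. Its morning level in natural 2014 stood above all other libraries, and its times overlapped in lab LD alone. Its log2 fold change was -2.83 ± 0.20 in natural 2014, -1.75 ± 0.22 in natural 2013 and -0.82 ± 0.19 in LD+FR+TEMP, and the value of -0.40 ± 0.19 in lab LD did not pass.

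**Figure D3:**
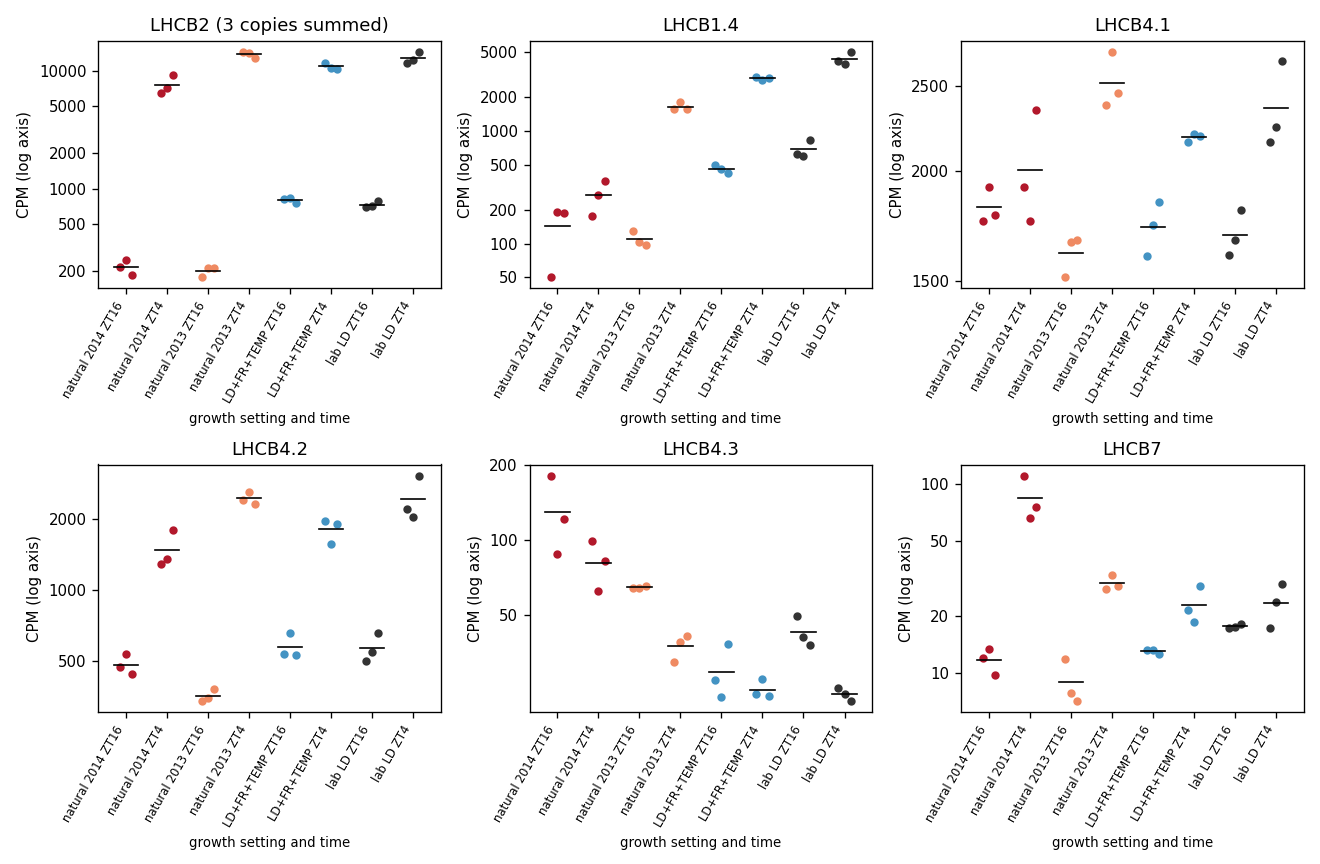
CPM on a log axis (y) in each library of the 8 groups (x) for the summed LHCB2 copies, LHCB1.4, the 3 LHCB4 genes and LHCB7; points are libraries and bars group means of 3. LHCB2 is between 178 and 247 CPM in the outdoor evening libraries and at least 692 CPM in the indoor ones, and LHCB4.3 is highest in natural 2014.

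In the photosystem I antenna the genes divided into those with a deep fall by ZT16 and those without. LHCA1 (AT3G54890) had 1297, 1524 and 1195 CPM at ZT16 and 3489, 3268 and 4749.7 CPM at ZT4 in natural 2014, and 929.6, 904 and 954 CPM and 4918, 5497 and 4964 CPM in natural 2013. It had 1042, 1082 and 1114 CPM at ZT16 and 4541, 3768 and 4301 CPM at ZT4 in LD+FR+TEMP, and 674, 658 and 803 CPM and 4931, 4609.7 and 5353 CPM in lab LD. Its evening libraries lay below its morning libraries in each setting. LHCA1 and LHCA4, whose proteins pair with each other, had near-equal log2 fold changes of -1.52 ± 0.12 and -1.54 ± 0.12 in natural 2014, -2.46 ± 0.12 and -2.60 ± 0.12 in natural 2013, -1.96 ± 0.12 and -1.73 ± 0.12 in LD+FR+TEMP, and -2.80 ± 0.12 and -2.92 ± 0.13 in lab LD. LHCA2 and LHCA3, which form the other pair, fell less, with values from -0.05 (LHCA2, natural 2014, not called) to -1.48 (LHCA3, lab LD). LHCA5 and LHCA6, which help photosystem I to bind the NAD(P)H dehydrogenase complex of cyclic electron flow, hardly followed the time of day. LHCA5 was called in natural 2014 alone (-0.35 ± 0.11, adjusted p = 0.0135), a call lost without natural 2014 ZT4 replicate 3 (-0.28). LHCA6 was called in none, with log2 values of 0.28, 0.09, -0.04 and -0.19 in natural 2014, natural 2013, LD+FR+TEMP and lab LD.

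PSBS (AT1G44575) had 824, 688 and 660.0 CPM at ZT16 and 1339.8, 997 and 1008 CPM at ZT4 in natural 2014, without overlap, and was lower at ZT16 there (-0.62 ± 0.12, adjusted p = 0.000154). In lab LD it had 680.2, 659 and 632 CPM and 767, 973 and 882 CPM and was also lower at ZT16 (-0.41 ± 0.12, adjusted p = 0.0154). The lab LD call was lost without lab LD ZT4 replicate 2 (-0.33) or lab LD ZT16 replicate 3 (-0.38). Neither natural 2013 (694, 700.0 and 711 CPM at ZT16 and 656, 816 and 748 CPM at ZT4) nor LD+FR+TEMP (685, 527 and 703 and 725, 828 and 833 CPM) gave a call (adjusted p = 0.67 and 0.0617).

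Of the 12 photosystem I subunits, 4 were lower at ZT16 and 1 higher in natural 2014, and 10 were lower in natural 2013, 7 in LD+FR+TEMP and 11 in lab LD. Of all genes tested, 22.5%, 17.8%, 12.1% and 11.5% were lower in the same settings. The median log2 fold changes of the 12 were -0.11, -0.81, -0.37 and -0.70 in that order. The largest fall in natural 2013, LD+FR+TEMP and lab LD was that of PSAD2, a copy of the ferredoxin-docking subunit, at -1.48 ± 0.12, -0.88 ± 0.12 and -1.50 ± 0.12. PSAD2 had 188, 206 and 159 CPM at ZT16 and 180.4, 178 and 221 CPM at ZT4 in natural 2014, where the times overlapped. It had 150.1, 148 and 138 CPM at ZT16 and 382, 423 and 407 CPM at ZT4 in natural 2013. It had 249, 184 and 259 CPM and 419, 443 and 411 CPM in LD+FR+TEMP and 279.8, 254 and 266 CPM and 689, 892 and 681 CPM in lab LD, so the times did not overlap in these 3 settings and the lab LD mornings stood above all other libraries. PSAH2 fell most in natural 2014 (-0.63 ± 0.15, adjusted p = 0.000915). PSAE2 rose there by 0.54 ± 0.11 (adjusted p = 0.000322), with 320.4, 349.9 and 335 CPM at ZT16 and 244, 202 and 246 CPM at ZT4. It was not called in natural 2013, LD+FR+TEMP or lab LD (-0.08, 0.12 and 0.11). Its copy PSAE1 was lower at ZT16 in all 4 settings, by log2 values of -0.48, -0.93, -0.48 and -0.46.

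Of the 9 photosystem II subunits, 1 was lower at ZT16 in natural 2014, 8 in natural 2013, 3 in LD+FR+TEMP and 8 in lab LD, and 0 were higher, beside the same shares of all genes. In natural 2014 this was under the share of all genes called lower. Their median log2 fold changes were -0.13, -0.48, -0.21 and -0.51. PSBY was the one in natural 2014 (-0.46 ± 0.15, adjusted p = 0.014), and it did not pass without natural 2014 ZT4 replicate 1 (-0.40) or 2 (-0.36) or natural 2014 ZT16 replicate 3 (-0.37). PSBQ2, a shield of the water-splitting cluster, fell most in natural 2013 (-0.74 ± 0.12, adjusted p = 3.11e-05). PSBW, a small subunit that stabilises photosystem II supercomplexes, fell most in lab LD (-0.86 ± 0.10, adjusted p = 2.02e-07). In LD+FR+TEMP the largest fall was that of PSBO2 (-0.82 ± 0.22, adjusted p = 0.00846). It rested partly on LD+FR+TEMP ZT16 replicate 2, without which it was -0.49, and it did not pass without LD+FR+TEMP ZT4 replicate 2 (-0.69).

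**Figure D4:**
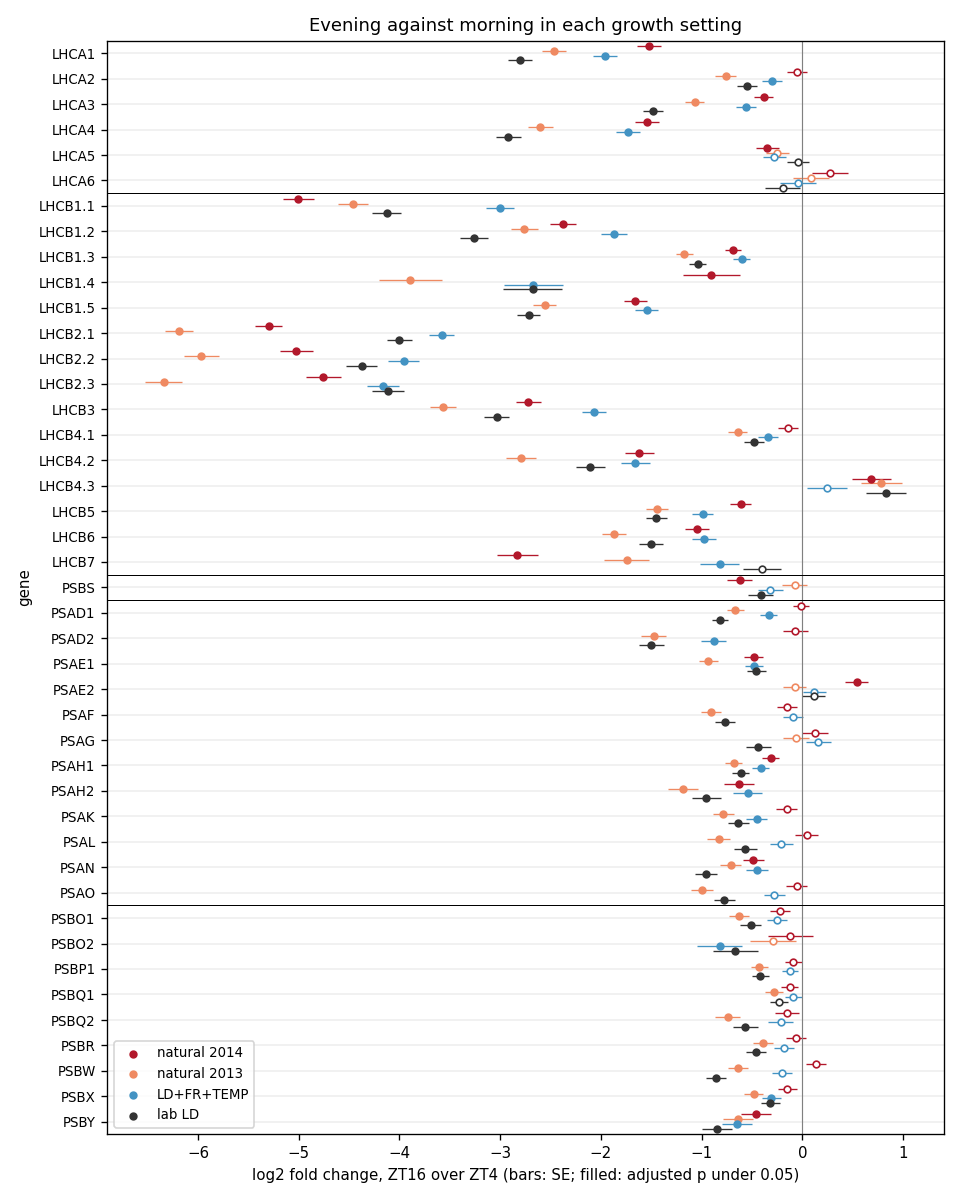
Log2 fold change of ZT16 over ZT4 (x axis) for the 43 genes (y axis, in blocks of LHCA, LHCB, PSBS, photosystem I and photosystem II) in the 4 settings (colours); bars are standard errors and filled points have an adjusted p under 0.05. The LHCB2 copies and LHCB1.1 reach -3.00 or lower in all settings, LHCB4.3 lies above 0, and most core subunits lie between -1 and 0.

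The time-of-day difference itself was then compared with that of lab LD. A positive value means that the gene fell less by ZT16 than in lab LD, or rose more. In natural 2014, 22 of the 43 genes had a higher value and 5 a lower one (background 14.9% and 15.4% of all genes tested). In natural 2013, 2 were higher and 8 lower (background 8.18% and 9.22%). Without lab LD ZT4 replicate 3 the natural 2013 count was 1 higher and 13 lower, and without lab LD ZT16 replicate 3 it was 2 higher and 5 lower. In LD+FR+TEMP, 12 were higher and 0 lower (background 2.15% and 2.09%). The 3 comparisons share the lab LD libraries. Higher values were frequent among the LHCA genes, of which 4 of 6 were called in natural 2014 and 3 of 6 in LD+FR+TEMP. They were also frequent among the photosystem I subunits in natural 2014, with 9 of 12 called. PSAD2 (1.43 ± 0.17, adjusted p = 3.5e-07), LHCA4 (1.37 ± 0.17, adjusted p = 3.76e-07) and LHCA3 (1.098 ± 0.14, adjusted p = 5.56e-07) had the smallest adjusted p among the higher values in natural 2014. In LD+FR+TEMP these were LHCB1.2 (1.39 ± 0.18, adjusted p = 2.89e-05), LHCB1.5 (1.17 ± 0.16, adjusted p = 5.62e-05) and LHCA4 (1.18 ± 0.17, adjusted p = 0.000107). Lower values were called in both outdoor years for the LHCB2 copies and LHCB7. Those of LHCB2.1, LHCB2.2 and LHCB2.3 were -1.30, -0.65 and -0.64 in natural 2014 and -2.19, -1.59 and -2.23 in natural 2013. In natural 2014, LHCB2.2 and LHCB2.3 did not pass without natural 2014 ZT4 replicate 3 (-0.47 and -0.41). LHCB2.3 also did not pass there without lab LD ZT4 replicate 1 (-0.57) or natural 2014 ZT16 replicate 3 (-0.54). LHCB1.1 was the other gene with a lower value in natural 2014 (-0.88 ± 0.18). In natural 2013 the others were LHCB1.4, LHCB3, LHCB4.2 and PSAE1 (-1.22, -0.53, -0.69 and -0.48). LHCB1.4 had the highest value in natural 2014 (1.77 ± 0.40, adjusted p = 0.0011), on a low outdoor level at both times. LHCB7 had the lowest value in natural 2014 (-2.43 ± 0.28, adjusted p = 1.4e-07) and stood at -1.34 ± 0.29 in natural 2013 (adjusted p = 0.00188). Without natural 2014 ZT4 replicate 1, which had the highest summed heat shock level, 18 genes were higher and 5 lower in natural 2014.

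The growth settings were next compared at ZT16, which asks what the outdoor and the modified indoor day did to the evening level. Against lab LD, natural 2014 had 13 of the 43 genes higher and 9 lower (background 18.5% higher and 35.8% in either direction). Natural 2013 had 5 higher and 20 lower (background 14.8% and 14.3%), so the share called lower exceeded the background in natural 2013. The 5 higher genes became 3 without natural 2013 ZT16 replicate 1 or 3 or any 1 of the lab LD ZT16 replicates. LHCB2 was low in both outdoor seasons. Its copies summed were 3.38-fold lower than in lab LD in natural 2014 (-1.76 ± 0.12, adjusted p = 1e-10) and 3.64-fold lower in natural 2013 (-1.86 ± 0.12, adjusted p = 1.23e-10). Its copy LHCB2.3 had the largest fall among the LHCB genes in both years, with 16.1, 15.8 and 12.5 CPM in natural 2014, 11.6, 13.9 and 14.6 CPM in natural 2013 and 94.6, 88.1 and 97.9 CPM in lab LD (-2.66 ± 0.16 and -2.80 ± 0.17). The LHCB1 sum was lower too, by a smaller amount (-0.47 ± 0.09, adjusted p = 0.000265, and -0.41 ± 0.09, adjusted p = 0.00126).

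LHCB4.3 was 3.06-fold higher in natural 2014 than in lab LD at ZT16 (1.61 ± 0.19, adjusted p = 6.05e-07). In natural 2013 it was 1.52-fold higher (0.60 ± 0.20, adjusted p = 0.0224), a call lost without any 1 of natural 2013 ZT16 replicates 1, 2 and 3 and lab LD ZT16 replicates 2 and 3 (0.52 to 0.61). PSBR, a docking subunit of the water-splitting side of photosystem II, was higher in both years. It had 9612, 10377 and 9809 CPM in natural 2014, 9008, 7761 and 8216 CPM in natural 2013 and 6029, 5969 and 6653 CPM in lab LD, and neither outdoor group overlapped lab LD (0.68 ± 0.10, adjusted p = 8.14e-06, and 0.42 ± 0.10, adjusted p = 0.00196). Among the LHCA genes the largest rise was that of LHCA1 in natural 2014 (0.91 ± 0.12, adjusted p = 1.47e-06) and of LHCA5 in natural 2013 (0.58 ± 0.11, adjusted p = 0.000449). LHCA5 held 329, 335 and 333 CPM in natural 2014, 317, 325 and 328 CPM in natural 2013 and 201, 223 and 227 CPM in lab LD. Every outdoor library was above every lab LD library. PSAD2 had the largest fall among the photosystem I subunits in both years (-0.53 ± 0.12 and -0.88 ± 0.12).

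LD+FR+TEMP had fewer called genes than the outdoor seedlings against lab LD at ZT16. It had 7 genes higher and 4 lower (background 1.65% and 1.0%), with a median of 0.00. The higher ones were LHCA1, LHCA3, LHCA4, LHCB1.1, LHCB1.2, LHCB1.5 and LHCB3, and the lower ones LHCA6, LHCB2.3, PSAK and PSBO2. LHCB1.1 rose most, with 1727, 2042 and 1323 CPM in LD+FR+TEMP and 719, 747 and 824 CPM in lab LD (1.15 ± 0.13, adjusted p = 1.65e-05). LHCA4 rose by 0.72 ± 0.12 (adjusted p = 0.00131). The LHCB1 sum was not called (0.27 ± 0.09, adjusted p = 0.0998). The count of 11 rested on single libraries, since it was 6 without LD+FR+TEMP ZT16 replicate 2, 3 without lab LD ZT16 replicate 1 and 7 without lab LD ZT16 replicate 3. All 4 falls were lost in at least 1 of these fits. PSBO2 had 218, 84.4 and 238 CPM in LD+FR+TEMP and 343, 309 and 367 CPM in lab LD, and without the low LD+FR+TEMP replicate 2 its log2 value was -0.59 beside -0.92.

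**Figure D5:**
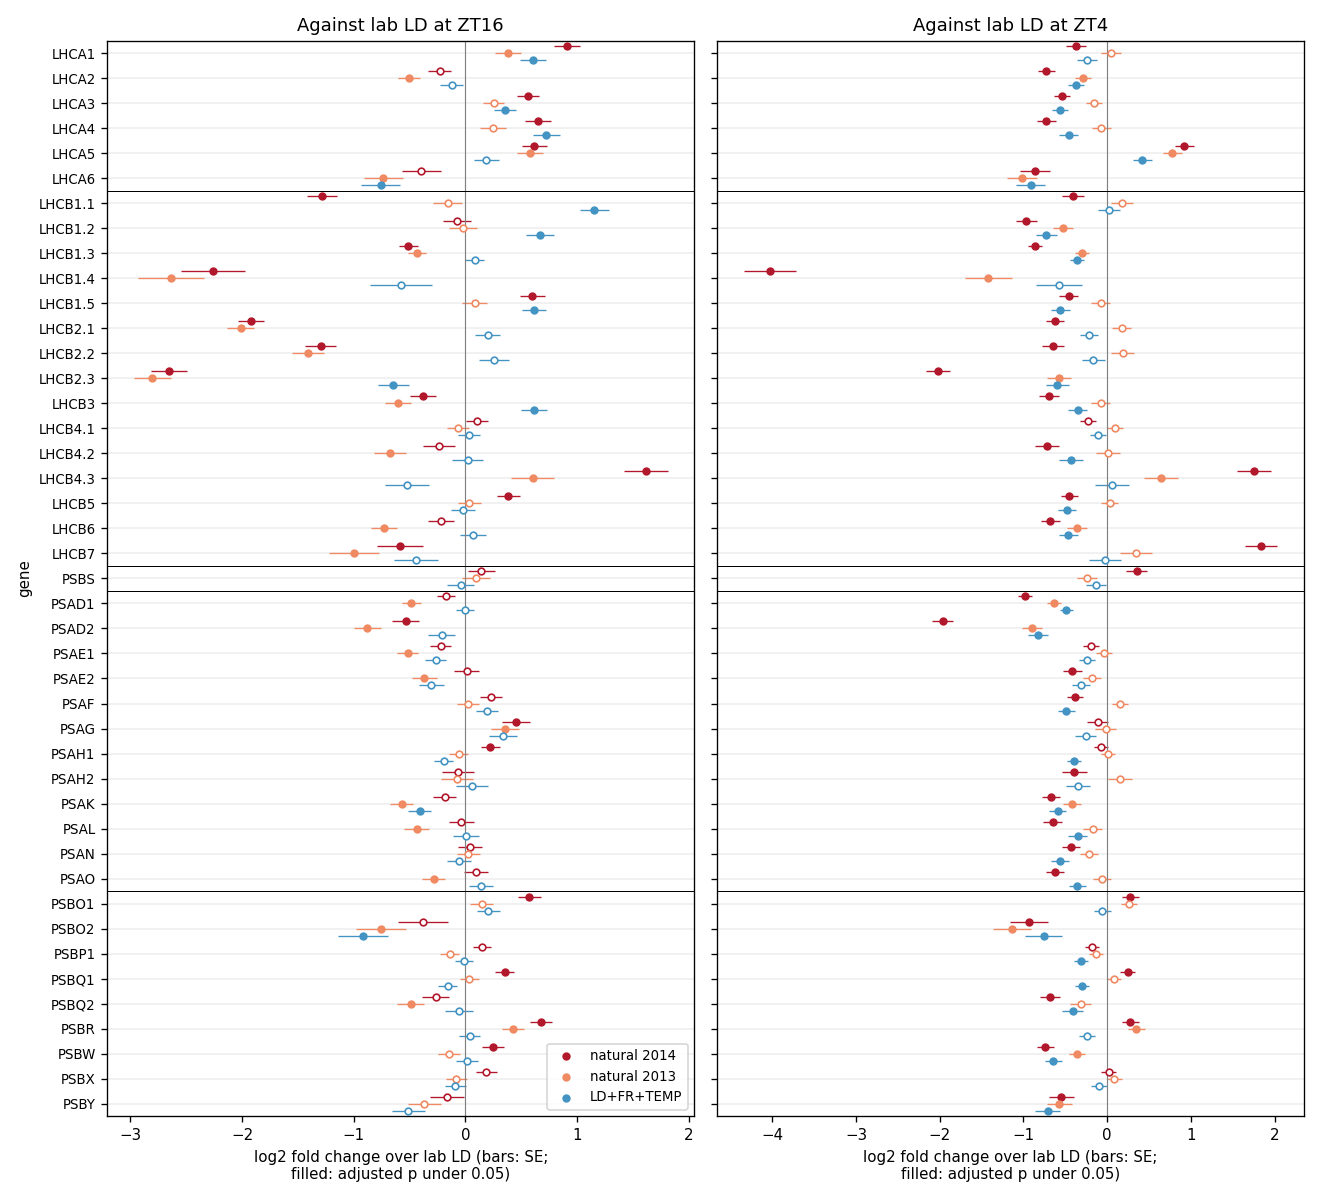
Log2 fold change over lab LD (x axis) for the 43 genes (y axis, in blocks of LHCA, LHCB, PSBS, photosystem I and photosystem II) at ZT16 (left) and ZT4 (right); colours are natural 2014, natural 2013 and LD+FR+TEMP, bars are standard errors and filled points have an adjusted p under 0.05. The LHCB2 copies lie between -2.80 and -1.30 outdoors at ZT16, and LHCB1.4 reaches -4.03 in natural 2014 at ZT4.

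Morning levels showed another pattern, with a broad fall in natural 2014 and in LD+FR+TEMP. At ZT4, natural 2014 had 7 of the 43 genes higher and 30 lower than lab LD (background 22.1% and 22.1%), with a median of -0.54. Natural 2013 had 3 higher and 13 lower (background 14.7% and 14.3%) and a median of -0.08. LD+FR+TEMP had 1 higher and 26 lower (background 8.34% and 8.6%) and a median of -0.36. Medians over all genes tested were -0.05, -0.03 and -0.01. The natural 2014 ZT4 libraries are those with the high heat shock level, and the part of heat in these differences was not tested. Without natural 2014 ZT4 replicate 1, the one with the highest heat shock level, 5 genes were higher and 27 lower. The 7 higher genes of natural 2014 became 4 without lab LD ZT4 replicate 1 or 2. Without lab LD ZT4 replicate 3, in which the 43 genes took their largest share of counts (18.95%), the LD+FR+TEMP comparison gave 1 higher and 18 lower, and natural 2013 gave 6 higher and 10 lower.

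LHCB1.4 had the largest difference of all, with 176, 271 and 356 CPM in natural 2014, 1566, 1795 and 1549 CPM in natural 2013, 3002, 2833 and 2948 CPM in LD+FR+TEMP and 4170.0, 3932 and 5031 CPM in lab LD. The 4 settings did not overlap in the morning. Against lab LD it was 16.4-fold lower in natural 2014 (-4.03 ± 0.31, adjusted p = 1.07e-10) and 2.67-fold lower in natural 2013 (-1.42 ± 0.28, adjusted p = 0.000426), and the value in LD+FR+TEMP was not called (-0.58 ± 0.27, adjusted p = 0.155). LHCB1.5, on the other side of the shared intergenic region, stood at -0.46, -0.08 and -0.56 in the same comparisons. At ZT16, LHCB1.4 was likewise low outdoors, with 50.8, 189.8 and 189 CPM in natural 2014, 130.5, 104 and 96.3 CPM in natural 2013 and 619, 604 and 831 CPM in lab LD (-2.26 ± 0.29 and -2.64 ± 0.30). The 1 low evening library of natural 2014 bears on its time of day: the fall at ZT16 was -0.91 with all libraries and -0.50 without natural 2014 ZT16 replicate 1, and it did not pass without natural 2014 ZT4 replicate 3 (-0.65).

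The LHCB1 sum was lower than in lab LD at ZT4 in natural 2014 (-0.78 ± 0.09, adjusted p = 1.12e-07) and LD+FR+TEMP (-0.30 ± 0.09, adjusted p = 0.0206), and not called in natural 2013 (adjusted p = 0.0995). The LHCB2 sum was lower in natural 2014 (-0.75 ± 0.12, adjusted p = 9.15e-06). It was not called in natural 2013 (0.10 ± 0.12) or LD+FR+TEMP (-0.24 ± 0.12). Against this fall, LHCB7 was 3.58-fold higher in natural 2014 (1.84 ± 0.19, adjusted p = 1.59e-08) and LHCB4.3 rose by 1.76 ± 0.20 (adjusted p = 1.1e-07). Without natural 2014 ZT4 replicate 1 both stayed called. LHCB4.3 rose less in natural 2013 (0.64 ± 0.21, adjusted p = 0.0198), where the call was lost without natural 2013 ZT4 replicate 2 (0.62) or 3 (0.57) or lab LD ZT4 replicate 3 (0.60).

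LHCA5 and LHCA6 moved in opposite directions in the morning. LHCA5 had 373, 432 and 464 CPM in natural 2014, 362, 405 and 384 CPM in natural 2013, 320.5, 278 and 299 CPM in LD+FR+TEMP and 208, 191 and 271 CPM in lab LD, and each of the 3 groups lay above lab LD. It rose by 0.92 ± 0.11 (adjusted p = 3.29e-07), 0.78 ± 0.11 (adjusted p = 1.33e-05) and 0.42 ± 0.11 (adjusted p = 0.0111). The last call was lost without LD+FR+TEMP ZT4 replicate 1 (0.37) or lab LD ZT4 replicate 1 (0.37) or 2 (0.32). LHCA6 had 92.7, 91.4 and 74.2 CPM in natural 2014, 84.6, 69.1 and 78.2 CPM in natural 2013, 86.7, 90.15 and 73.1 CPM in LD+FR+TEMP and 143, 191 and 136 CPM in lab LD, and each of the 3 groups lay below lab LD. Its values were -0.86 ± 0.18 (adjusted p = 0.000306), -1.02 ± 0.18 (adjusted p = 0.00012) and -0.91 ± 0.18 (adjusted p = 0.000664).

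Among the core subunits, PSAD2 had the largest morning fall of photosystem I in all 3 comparisons (-1.96 ± 0.13, -0.90 ± 0.12 and -0.83 ± 0.12 in natural 2014, natural 2013 and LD+FR+TEMP), and PSBO2 that of photosystem II in all 3. PSBO2, a second copy of the shield that steadies the water-splitting cluster, had 319.6, 289 and 240.3 CPM in natural 2014, 258, 228 and 250.03 CPM in natural 2013, 334, 372 and 248 CPM in LD+FR+TEMP and 519.8, 616 and 479.7 CPM in lab LD. No library of the 3 settings reached the lab LD range. The values were -0.93 ± 0.23 (adjusted p = 0.00155), -1.13 ± 0.23 (adjusted p = 0.000488) and -0.76 ± 0.22 (adjusted p = 0.0197), the last lost without LD+FR+TEMP ZT4 replicate 3 (-0.61) or lab LD ZT4 replicate 2 (-0.65). PSBR was the largest rise of photosystem II in natural 2013 (0.35 ± 0.10, adjusted p = 0.00864), lost without lab LD ZT4 replicate 2 (0.27). PSBS rose in natural 2014 (0.35 ± 0.12, adjusted p = 0.0217), with 1339.8, 997 and 1008 CPM there and 767, 973 and 882 CPM in lab LD. That call was lost without natural 2014 ZT4 replicate 1 (0.19) or lab LD ZT4 replicate 1 (0.27).

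The outdoor seedlings were also set against LD+FR+TEMP, the indoor setting built to resemble the outdoor day. In the evening the mean of the 2 outdoor years had 5 genes higher and 17 lower (background 14.4% and 16.3%). The LHCB genes accounted for 11 of the 17. The LHCB2 sum was 3.85-fold lower outdoors (-1.94 ± 0.10, adjusted p = 1.09e-12), and the LHCB1 sum 1.64-fold lower (-0.71 ± 0.08, adjusted p = 1.64e-07). LHCB4.3 was 3.10-fold higher outdoors (1.63 ± 0.18, adjusted p = 2.28e-07), and PSBR rose by 0.51 ± 0.09 (adjusted p = 6.18e-05). In the morning, 10 genes were higher and 5 lower outdoors (background 14.8% lower and 29.8% in either direction), so 15 of 43 called genes stood near the background share. Root markers moved with this contrast, as 5 of the 6 were lower outdoors at ZT16 (median log2 -2.21) and 4 of 6 at ZT4 (median -1.18). Floral markers did too, as all 4 of the 5 that passed the filter on low counts were higher at both times. The part of either marker list in these differences was not tested. LHCB1.4 (-2.15 ± 0.23, adjusted p = 1.49e-07) and LHCB4.3 (1.141 ± 0.18, adjusted p = 3.2e-05) were the extremes. Neither family sum was called in the morning (LHCB1 -0.19 ± 0.08, adjusted p = 0.0705; LHCB2 -0.09 ± 0.10, adjusted p = 0.565).

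The outdoor years were also set against each other. At ZT4, natural 2014 had 3 genes higher and 25 lower than natural 2013 (background 16.5% and 14.5%). The 3 higher genes were LHCB7 (1.49 ± 0.19, adjusted p = 1.18e-06), LHCB4.3 (1.11 ± 0.20, adjusted p = 0.000123) and PSBS (0.59 ± 0.12, adjusted p = 0.000535). The largest falls per role were those of LHCB1.4 (-2.61 ± 0.29), PSAD2 (-1.06 ± 0.12), LHCA4 (-0.66 ± 0.12) and PSBW (-0.38 ± 0.10), the last with an adjusted p of 0.00441. Both family sums fell (LHCB1 -0.58 ± 0.09, adjusted p = 1.76e-05; LHCB2 -0.85 ± 0.12, adjusted p = 3.17e-06). The 5 heat shock genes moved with this contrast, as all 5 were higher in natural 2014 with a median log2 fold change of 7.265, and their part in it was not tested. At ZT16, 14 genes were higher in natural 2014 and 1 lower (background 2.82% and 2.33%). LHCB1.1 was the lower one, with 289, 352 and 300.4 CPM in natural 2014 and 647, 689.8 and 717 CPM in natural 2013 (-1.12 ± 0.13, adjusted p = 1.5e-05). LHCB4.3 had the largest rise (1.01 ± 0.19, adjusted p = 0.00232). This count of 15 depended on single libraries. It was 6, 5 and 7 without natural 2013 ZT16 replicate 1, 2 and 3, and 7 and 2 without natural 2014 ZT16 replicate 1 and 2.

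Several subunits are encoded by a pair of genes, and the log2 ratio of the 2 copies, log2(CPM + 1) of the first minus that of the second, was followed over the groups. Ratios were compared between groups only. Exact permutation tests, two-sided, shuffled libraries between ZT16 and ZT4 within each setting (160000 arrangements) or between the 2 outdoor and the 2 indoor settings within each time (853776 arrangements), and p was adjusted over the 12 tests. The second kind exchanges libraries between the settings of each side, so its p treats the 3 libraries of a setting as separate replicates of outdoors or indoors and says nothing beyond these 4 settings. The CP29 pair LHCB4.1/LHCB4.2 differed most by time, with a ratio higher by 1.64 at ZT16 (adjusted p = 5e-05) and in the same direction in 4 of 4 settings. PSAE1/PSAE2 moved the other way, being lower by a log2 ratio of -0.76 at ZT16 in 4 of 4 settings (adjusted p = 5e-05). Both raw p-values were 1.25e-05, the smallest these arrangements can give. In natural 2014, for example, its log2 ratio was 1.61 ± 0.11 at ZT16 and 2.64 ± 0.09 at ZT4. PSAD1/PSAD2 was higher at ZT16 by 0.52 (adjusted p = 0.000225), PSAH1/PSAH2 by 0.32 (adjusted p = 0.00806) and PSBQ1/PSBQ2 by 0.23 (adjusted p = 0.0178). Each mean was higher in 4 of 4 settings, but not by an equal amount. In natural 2014 the ZT16 and ZT4 ratios were close, at 3.25 ± 0.08 and 3.20 ± 0.12 for PSAD1/PSAD2 and 0.59 ± 0.17 and 0.58 ± 0.26 for PSBQ1/PSBQ2. In LD+FR+TEMP, PSAH1/PSAH2 stood at -1.63 ± 0.35 and -1.76 ± 0.335. PSBO1/PSBO2 was not called (0.10, adjusted p = 0.676).

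Outdoors against indoors, the pairs of the water-splitting shield stood apart. PSBQ1/PSBQ2 was higher by 0.61 outdoors (adjusted p = 2.81e-05). PSBQ1 had 1978, 1759 and 1695 CPM in natural 2014, 1477, 1344 and 1546 CPM in natural 2013, 1288, 1165 and 1368 CPM in LD+FR+TEMP and 1448, 1369.8 and 1446 CPM in lab LD at ZT16. PSBQ2 had 1141, 1266 and 1186, 1010.5, 1041 and 1024, 1383, 1479 and 1292 and 1298, 1509 and 1518 CPM in the same groups, so every outdoor evening library held less PSBQ2 than every indoor one. That was not so at ZT4, where PSBQ2 had 1637, 1784 and 1724 CPM in natural 2013 and 1604, 1503 and 1708 CPM in LD+FR+TEMP. PSBO1/PSBO2 was higher by 0.62 in the mean of the outdoor groups (adjusted p = 0.0178). At ZT16 its log2 ratio was 4.055 in natural 2014, 3.99 in natural 2013, 4.34 in LD+FR+TEMP and 3.09 in lab LD, so in the evening lab LD alone lay below the outdoor groups. PSBO1 had 4166, 4514 and 4248 CPM at ZT16 and 4448, 4698 and 5896 CPM at ZT4 in natural 2014, and 2991, 3251 and 3359 and 4969, 5115 and 4786 CPM in natural 2013. Indoors it had 3150.2, 3766 and 3100.1 CPM and 3919, 4035 and 3975 CPM in LD+FR+TEMP, and 2736, 2793 and 3163 CPM and 4022, 3727 and 4659 CPM in lab LD. The ratio had its widest spread in LD+FR+TEMP at ZT16 (SD 0.98), where replicate 2 was low for PSBO2. Averaged over the settings of each side, PSAD1/PSAD2 was higher outdoors by 0.36 (adjusted p = 0.00554) and LHCB4.1/LHCB4.2 by 0.29 (adjusted p = 0.00804). At ZT4, natural 2013 lay below LD+FR+TEMP in both, at 2.47 and 2.55 for PSAD1/PSAD2 and 0.04 and 0.28 for LHCB4.1/LHCB4.2. PSAH1/PSAH2 (0.18, adjusted p = 0.153) and PSAE1/PSAE2 (-0.03, adjusted p = 0.555) were not called.

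Other genes of photosynthesis were taken from lists of named loci. Of 12 genes of electron transport and ATP synthesis, 5, 7, 5 and 4 were lower at ZT16 in natural 2014, natural 2013, LD+FR+TEMP and lab LD, and 3, 2, 1 and 1 higher. The shares of all genes called lower were 22.5%, 17.8%, 12.1% and 11.5%, and they are the background of each list below. For genes called higher the shares were 23.2%, 11.4% and 10.4% in natural 2014, LD+FR+TEMP and lab LD. In natural 2013, 35.5% were called in either direction. LFNR2, an enzyme that passes electrons to NADP+, was higher at ZT16 in all 4 (1.31, 1.33, 0.72 and 1.01), and PGR5, needed for cyclic electron flow, was lower in all 4. Of 11 genes of carbon fixation, 8, 4, 4 and 3 were lower at ZT16 and 0, 0, 1 and 2 higher. At ZT4, 8 of 11 were higher than in lab LD in natural 2014 (background 22.1%) and 7 of 11 in natural 2013 (background 14.7%), and 0 were lower. RCA, the activase of Rubisco, rose by 0.97 ± 0.09 in natural 2014 and 0.67 ± 0.09 in natural 2013. RBCS1A, a gene of the small subunit of Rubisco and a marker of green tissue, rose by 0.72 ± 0.11 and 0.30 ± 0.11. Of 8 genes for antenna insertion, phosphorylation and the xanthophyll cycle, the epoxidase ZEP was lower and the de-epoxidase VDE higher at ZT16 in all 4 settings. ZEP stood at -3.43, -3.43, -2.74 and -2.48, and VDE at 1.97, 1.28, 1.03 and 0.93. STN7, the kinase that phosphorylates LHCB1 and LHCB2, was also lower at ZT16 in all 4.

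Regulators known to act on antenna genes formed a list of 7. All 7 were lower at ZT16 outdoors in both years (background 22.5% in natural 2014 and 17.8% in natural 2013), 5 in LD+FR+TEMP (background 12.1%) and 3 in lab LD (background 11.5%), where 3 were higher (background 10.4%). Against lab LD at ZT4, 5 of the 7 were higher and 1 lower in natural 2014 (median log2 1.23, background 22.1% and 22.1%). In natural 2013, 6 were higher and 0 lower (median 0.80, background 14.7% and 14.3%). LD+FR+TEMP had 4 higher and 0 lower (median 0.61, background 8.34% and 8.6%). CCA1 and LHY, the morning factors of the clock, were lower everywhere, with CCA1 at -7.88, -7.77, -6.15 and -5.83. CGA1, a GATA factor that promotes chloroplast growth, was lower at ZT16 in natural 2014 (-3.36 ± 0.17), natural 2013 (-2.86 ± 0.17) and LD+FR+TEMP (-1.13 ± 0.15), and higher in lab LD (0.44 ± 0.16). GLK2, an activator of antenna genes, was the lower one in natural 2014 than in lab LD at ZT4 (-1.138 ± 0.10), whereas natural 2013 (0.20 ± 0.09) and LD+FR+TEMP (-0.21 ± 0.09) gave no call. Markers of other tissue were measured beside these results, and their part in them was not tested. The 6 root markers summed to 238.5 to 384.7 CPM outdoors and 291 to 410.6 CPM indoors, with none of the 6 at 0 in any group. BGLU23 made up most of these sums. Against lab LD, 2 of 6 root markers were lower in natural 2013 at ZT16 (background 14.3%) and 1 of 6 in natural 2014 at ZT4 (background 22.1%). In LD+FR+TEMP, 2 of 6 were higher at ZT16 (background 1.65%) and 1 of 6 at ZT4 (background 8.34%). The 5 floral markers summed to 3.35 to 12.3 CPM outdoors and 0.55 to 1.73 CPM indoors. Of the 4 that were tested, 3 were higher than in lab LD in natural 2014 at each time (background 18.5% at ZT16 and 22.1% at ZT4). All 4 were higher in natural 2013 at each time (background 14.8% and 14.7%), and 0 were called in LD+FR+TEMP. AP1 was at 0 in all libraries of 3 indoor groups and AP3 in those of LD+FR+TEMP at ZT4.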

How the data were processed

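RNA of 24 whole-seedling libraries (8 groups of 3) was counted as 3′ tags. The deposited files hold raw counts per transcript model. Per the submitters' processing notes, bcl2fastq 2.17.1.14, Trimmomatic 0.36, Bowtie2, edgeR and the TAIR10 build were used. The counting step, its use of strand and its treatment of reads with several matches are not given in the sources used here. A strand error or a shared read would therefore move counts between overlapping or near-identical genes. The deposited CPM table was not used, and 0 columns belonged to other samples.

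Counts of 48359 models were summed to 27655 loci, and no row lacked a gene. No 2 libraries were identical. Genes were kept with edgeR's filterByExpr (minimum count 10, minimum total 15), scaled by TMM and fitted with edgeR 4.0.16 in R 4.3.3 (1 quasi-likelihood fit of 24 libraries, 8 group means, common dispersion 0.0143). The 17 contrasts were each adjusted over 18797 genes (Benjamini-Hochberg). Paralogue ratios were tested by exact permutation in Python 3.11.15 with scipy 1.17.1, and upstream windows and 3′ ends were read from RefSeq TAIR10.1, with identities from Biopython 1.88. The build of the files, TAIR10, was named without coordinates, so coordinates come from RefSeq alone. On simulated counts for natural 2014 against lab LD at ZT4 (18535 genes), the test recovered 100%, 80%, 88% and 100% of 50 genes each at log2 changes of -2, -1, 1 and 2, with 13 false calls. The simulation gave all genes and libraries the same dispersion and changed only these genes. In the real contrast 22.1% of genes were called in each direction, so these rates need not hold for it. Alternatives were RLE scaling, DESeq2 1.42.0, limma-trend (limma 3.58.1), other filters, other libraries in the fit, a replicate block, thinned libraries, summed copies and leaving out each library.

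The 43 genes and the other lists were chosen with earlier results of these data known. All 43 are accounted for. Values in every library are given for the genes the results turn on, and genes with the largest rise or fall per role and comparison are named with their log2 fold change. Of each interaction, up to 3 genes in each direction with the smallest adjusted p are named, and of the other lists up to 3 examples.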

Additional observations from a re-analysis of the deposited data

Results flagged for a closer look

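The time-of-day difference of some genes differed between a setting and lab LD by the interaction test in edgeR, and up to 3 genes in each direction per setting are given here with that difference, on the log2 scale, and its standard error. In natural 2014 the values were 1.43 ± 0.17 for PSAD2 (adjusted p = 3.5e-07), 1.37 ± 0.17 for LHCA4 (adjusted p = 3.76e-07) and 1.098 ± 0.14 for LHCA3 (adjusted p = 5.56e-07), so these fell less by ZT16 than in lab LD. They were -2.43 ± 0.28 for LHCB7 (adjusted p = 1.4e-07), -1.30 ± 0.16 for LHCB2.1 (adjusted p = 4.44e-07) and -0.88 ± 0.18 for LHCB1.1 (adjusted p = 0.000556), which fell more. In natural 2013 they were 0.41 ± 0.14 for LHCA3 (adjusted p = 0.0373) and 0.50 ± 0.18 for LHCB1.2 (adjusted p = 0.0491), and both calls were lost when single libraries were left out. The LHCB2 copies gave -2.19 ± 0.16 for LHCB2.1 (adjusted p = 4.76e-10), -2.23 ± 0.21 for LHCB2.3 (adjusted p = 3.38e-08) and -1.59 ± 0.20 for LHCB2.2 (adjusted p = 1.78e-06) in natural 2013. In LD+FR+TEMP they were 1.39 ± 0.18 for LHCB1.2 (adjusted p = 2.89e-05), 1.17 ± 0.16 for LHCB1.5 (adjusted p = 5.62e-05) and 1.18 ± 0.17 for LHCA4 (adjusted p = 0.000107). The 3 comparisons share the lab LD libraries, and single LHCB1 and LHCB2 copies are uncertain. Each group holds 3 libraries, too few to look for single outlying samples by range.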

How the results depend on the processing

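Of 395 called results of single genes, 294 were called under every alternative run and with every library left out, 45 were lost under at least 1 other setting, 101 were lost with at least 1 library left out, and 0 changed sign. Most losses came from fitting only the groups compared (29 lost, 27 gained) and limma-trend (20 lost, 0 gained). DESeq2 lost 3 and gained 17, RLE scaling lost 5 and gained 3, no filter lost 4 and gained 2, a mean of at least 5 CPM lost 7 and gained 21, and libraries thinned to the smallest lost 12 and gained 3. Counts of called genes moved by over 1.5 times in few cases. LD+FR+TEMP against lab LD at ZT16 gave 7 in place of 11 with the LHCB1 and LHCB2 copies summed, which makes fewer genes, and 3 to 16 with 1 library left out. Natural 2014 against natural 2013 at ZT16 gave 23 in place of 15 with only the groups compared (the cause was not tested), and 2 to 19 with 1 library left out. The interaction for natural 2013 gave 6 in place of 10 with copies summed, again fewer genes. Shares of counts over a total without the 10 most abundant other genes were higher by construction, at 9.365%, 8.08%, 9.34% and 9.08% at ZT16 and 11.6%, 17.37%, 14.7% and 18.99% at ZT4 in natural 2014, natural 2013, LD+FR+TEMP and lab LD. Deviations of libraries with the same replicate number correlated at -0.12 to 0.21 between groups. Between LD+FR+TEMP and lab LD they correlated at 0.08 to 0.13 at ZT4 and 0.01 to 0.21 at ZT16. Libraries with different numbers were not compared, so this cannot show whether the numbers pair the samples. With the replicate block 3 calls were lost and 3 gained, and the counts stayed within 1.5 times of those without it. The outdoor libraries were shallower, and the part of depth in the precision of low genes such as LHCB7, LHCB4.3 and LHCA6 was not tested.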
